A study of Mus musculus with 16 samples.

Results

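The genes described here are 42 mouse genes of the cell cycle and DNA replication, taken by symbol from a table of 54838 genes. They comprise 14 replication genes, 25 mitosis genes and 3 regulators of the step from G1 to S phase (*Ccne1*, *Ccne2* and *E2f1*), and every symbol named 1 gene of the table. Each gene was compared between 8 size-selected and 8 whole spleen samples of C57BL/6 mice, 4 male and 4 female numbers in each group, in a study of genes enriched in spleen glia. The size-selected samples, whose source the labels name as spleen glia, are the cells that a strainer held back after spleens were minced, digested with enzymes and treated to lyse red blood cells. The labels do not describe the preparation of whole spleen separately, give no age, and give each number to 1 sample of each group.

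Replication and division of a cell follow an ordered programme of transcription. Genes for licensing and copying DNA are switched on near the entry into S phase, largely through E2F factors, and genes for the spindle, the kinetochore and chromosome segregation follow in G2 and M phase, through the MuvB complex, which binds the cell cycle homology region (CHR) and works with B-MYB and FOXM1, and through NF-Y, a separate factor that binds the CCAAT box. In the adult mouse spleen, dividing cells are known mainly among activated lymphocytes, germinal centre B cells, plasmablasts and the red pulp's erythroid and myeloid precursors.

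The promoters show E2F and CHR words at different shares in the replication and mitosis genes, and CCAAT at similar shares. No test of the differences was made. The RefSeq table of promoters (GRCm38.p6, 250 bases before to 50 after each start site) held 33 of the 42 genes, with 34 promoters. The promoters below were chosen because they carry the words of their class, and that of *Bub1b* was added after its values were seen. The promoter of the replication gene *Rrm2* was also considered. It had no E2F or CHR word and 1 CCAAT word, and it is not printed. They are printed from 250 bases before the start site to 30 bases after it, 5′ to 3′ on the strand of the gene, with capitals for E2F words, CHR words and CCAAT on either strand.
Mcm5 (chr8:75109259-75109538, plus strand): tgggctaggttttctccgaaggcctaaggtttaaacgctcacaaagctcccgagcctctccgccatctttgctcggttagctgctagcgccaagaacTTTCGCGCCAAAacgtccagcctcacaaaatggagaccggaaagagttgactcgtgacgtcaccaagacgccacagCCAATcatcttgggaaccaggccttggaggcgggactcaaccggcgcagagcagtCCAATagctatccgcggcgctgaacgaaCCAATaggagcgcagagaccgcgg
Cdk1 (chr10:69352883-69353162, minus strand): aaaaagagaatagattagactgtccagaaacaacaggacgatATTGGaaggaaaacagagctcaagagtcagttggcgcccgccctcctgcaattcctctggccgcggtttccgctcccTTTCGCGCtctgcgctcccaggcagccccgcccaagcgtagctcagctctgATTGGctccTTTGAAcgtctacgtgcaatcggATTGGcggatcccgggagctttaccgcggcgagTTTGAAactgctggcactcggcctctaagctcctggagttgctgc
Ccnb2 (chr9:70421525-70421804, minus strand): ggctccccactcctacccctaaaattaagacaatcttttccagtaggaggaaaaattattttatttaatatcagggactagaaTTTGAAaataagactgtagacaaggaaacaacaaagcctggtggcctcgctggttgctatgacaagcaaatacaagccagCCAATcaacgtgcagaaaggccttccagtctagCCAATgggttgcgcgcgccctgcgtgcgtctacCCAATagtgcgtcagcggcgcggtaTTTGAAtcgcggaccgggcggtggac
Bub1b (chr2:118597961-118598240, plus strand): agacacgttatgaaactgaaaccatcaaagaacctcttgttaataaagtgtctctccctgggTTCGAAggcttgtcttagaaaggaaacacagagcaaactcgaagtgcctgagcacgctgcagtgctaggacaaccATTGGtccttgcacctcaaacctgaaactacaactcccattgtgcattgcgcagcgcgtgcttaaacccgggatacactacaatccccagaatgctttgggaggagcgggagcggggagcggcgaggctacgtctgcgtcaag
In *Mcm5*, a subunit of the replicative helicase, 2 E2F words on opposite strands overlapped in 1 run of capitals, and no CHR word was found in the window. *Cdk1*, the kinase that drives mitosis, had 1 E2F word, 2 CHR words and 3 CCAAT words. *Ccnb2*, a B-type cyclin partner of that kinase, had 2 CHR words and 3 CCAAT words. In *Bub1b*, a spindle checkpoint gene, 1 of the 2 CHR words starts 40 bases after the start site and so lies beyond the printed stretch.

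Both strands were searched. The E2F words were TTTCCCGC, TTTCGCGC, TTTGGCGC and TTTGCCGC. The CHR was searched as TTTGAA. Its second form, which reads the same on either strand, was TTCGAA. The CCAAT box was searched by the letters of its name. E2F words occurred in 5 of 12 replication promoters (41.7%) and in 1 of 20 mitosis promoters (5.0%, that of *Cdk1*), against 3.8% of the 13426 promoters of genes tested and 2.26% of all 32851 promoters. CHR words occurred in 16 of 20 mitosis promoters (80.0%) and in 3 of 12 replication promoters (25%), against 14.2% and 19.2%. CCAAT occurred in 10 of 12 replication promoters (83.3%) and in 16 of 20 mitosis promoters (80.0%), against 37.4% of each background. Neither of the 2 G1/S promoters in the table (*Ccne1* and *E2f1*) had any of the words. These matches of letters describe the window and say nothing of whether a factor was bound.

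The data are estimated counts per gene, with totals from 13119955 to 19944381 in the size-selected and from 12153763 to 16282420 in the whole spleen samples. Levels are given as CPM, counts relative to TMM-scaled library totals, so they compare samples for a gene and not genes with each other. In the size-selected columns the deposited values of 3898 genes are estimated counts multiplied by constants below 1, found from the values alone. Of the 42 genes, 11 carry such a constant, from 0.770 to 0.858 over the samples. They are *Mcm2*, *Mcm5*, *Cdc45*, *Cdc6*, *Ccne1*, *Foxm1*, *Cdc20*, *Ube2c*, *Birc5*, *Kif11* and *Kif20a*. Values with the constants divided out are called restored counts, and the log2 fold change on restored counts is given for each of these 11 genes. In bulk RNA, fewer cells of a type and less RNA per cell cannot be told apart.

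Most of the 42 genes were lower in the size-selected samples than in whole spleen. All 42 passed the count filter, and 32 fell, 1 rose and 9 were not called (edgeR quasi-likelihood test, Benjamini-Hochberg adjusted p under 0.05 over 14510 genes). Over all genes tested, 67.9% were called, 30.4% as lower and 37.5% as higher. The median log2 fold change of the 42 genes was -0.75, with values from -1.59 to 1.57, beside a median of 0.05 over all genes tested. On restored counts 30 fell and 1 rose (30.4% and 37.6% of genes tested), and a fit blocked on the number that both samples of a pair share (replicate block) also gave 32 lower and 1 higher (31.3% and 38.1%). Scaling by library totals moved the median of all genes tested to 0.18, and 27 of the 42 genes then fell and 1 rose (23.7% and 41.6%), with the calls of *Mcm3*, *Mcm6*, *Ccna2*, *Cenpf* and *Tpx2* lost. None of the 42 is in the authors' deposited table of 2201 genes higher in the size-selected samples. *Bub1b*, the gene called higher, is absent too. The other 41 estimates were below 0, so their absence from such a table adds nothing to the falls.

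**Figure D1:**
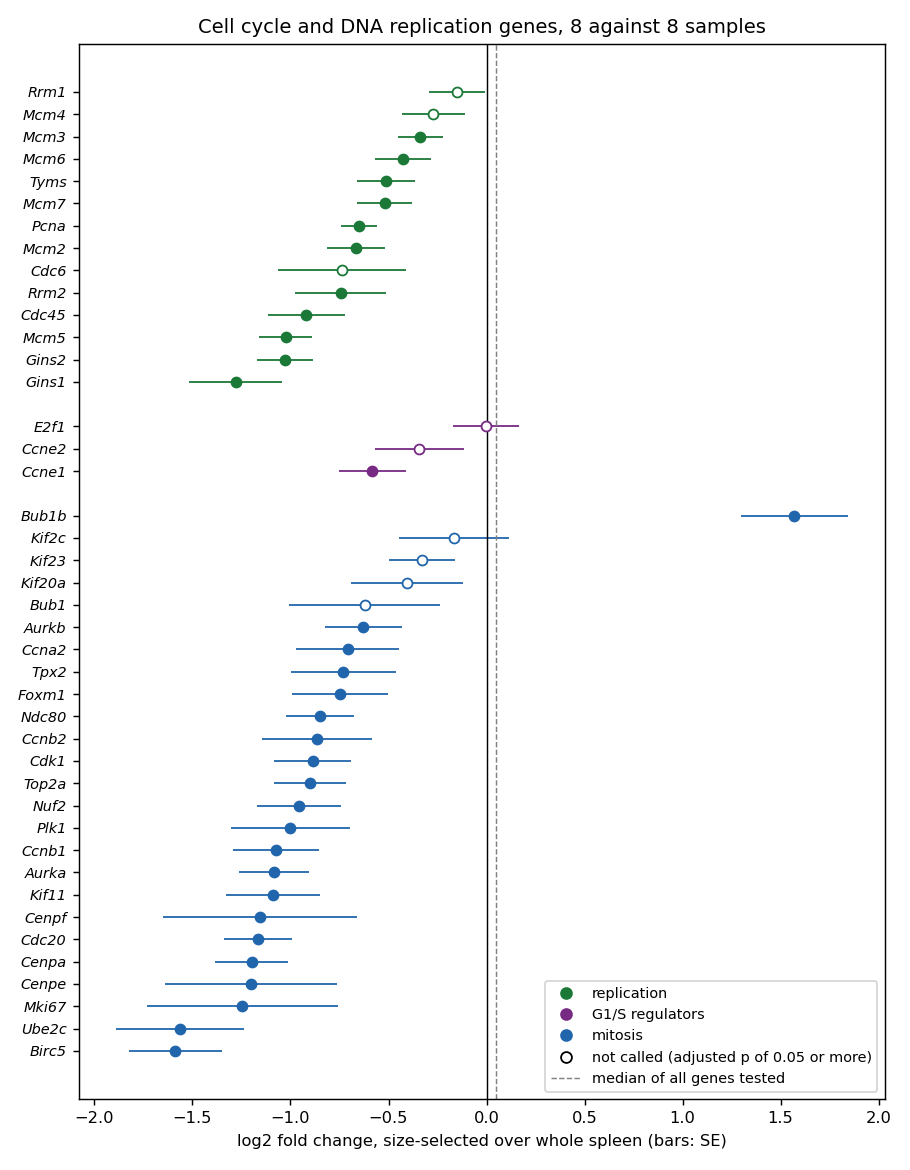
Log2 fold change of each of the 42 genes, size-selected over whole spleen, with its standard error, ordered within replication, G1/S and mitosis genes. Filled points passed the test, open points did not, and the dashed line is the median of all genes tested (0.05). *Bub1b*, at 1.57, is the gene that stands to the right.

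Fewer genes were separated sample by sample. Every size-selected sample lay below every whole spleen sample for 7 genes, where 11.6% of genes tested did so. These were *Mcm5*, *Gins2*, *Pcna*, *Aurka*, *Cdc20*, *Cenpa* and *Birc5*. The reverse held for *Bub1b* alone among the 42, as for 23.3% of genes tested. Within same-numbered pairs, 20 genes were lower in 8 of 8 pairs (22.2% of genes tested) and *Bub1b* was higher in 8 of 8 (31.3%). On restored counts 6 genes (11.3%) had all size-selected samples below: the groups of *Cdc20* and *Birc5* then overlapped, and those of *Ndc80* then did not.

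The replication class fell with 11 of its 14 genes called lower and none higher, and its median log2 fold change was -0.66. All 14 estimates were below 0. The class holds 10 genes of the origin and helicase machinery, of which 8 fell (median -0.70, or -0.53 on restored counts), and 4 genes of nucleotide supply and the sliding clamp, of which 3 fell (median -0.58). On restored counts the class median was -0.57 with 11 called lower, and without the 4 genes that carry a constant the other 10 had a median of -0.52 with 8 called lower.

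The MCM2 to MCM7 proteins form the ring that unwinds DNA at the fork. *Mcm5* (ENSMUSG00000005410, chromosome 8, 75109569 to 75128439, GENCODE M21 on GRCm38) ranged from 93.8 to 146 CPM in whole spleen, with a median of 115, and from 35.4 to 75 CPM in the size-selected samples, with a median of 55.4. The groups did not overlap, and number 427 held both the highest whole spleen and the lowest size-selected value. Its log2 fold change was -1.02 (SE 0.13, edgeR adjusted p 1.84e-06), and -0.78 on restored counts. *Mcm2* ranged from 67.9 to 121 CPM in whole spleen (median 76.6) and from 37.7 to 77.8 CPM in the size-selected samples (median 50.7). A single size-selected sample, number 435, lay above the lowest whole spleen sample. Its log2 fold change was -0.67 (SE 0.15, edgeR adjusted p 0.000614), and -0.42 on restored counts (adjusted p 0.0191). *Mcm3*, *Mcm6* and *Mcm7* fell by 0.34, 0.43 and 0.52 on the log2 scale. *Mcm3* and *Mcm6* were not called when scaled by library totals (adjusted p 0.166 and 0.111), nor was *Mcm3* without number 427 or 445 (0.0562 to 0.0781) or *Mcm6* without number 445 (0.0848). *Mcm4* was at -0.27 without passing the test (adjusted p 0.143), and its estimate was -0.10 without number 427, -0.17 without number 445 and -0.39, and called, without number 435 (adjusted p 0.0436). The estimates of the 6 subunits, which act in equal numbers in 1 ring, lay at log2 fold changes from -1.02 to -0.27, or from -0.78 to -0.32 on restored counts.

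Of the 4 genes for the loader and activators of the helicase 3 fell. *Gins1* and *Gins2*, subunits of the GINS complex, fell by 1.28 (SE 0.24) and 1.03 (SE 0.14) on the log2 scale, and *Cdc45*, their partner in the active helicase, by 0.92 (SE 0.20), or by 0.67 on restored counts. *Gins1* had 16 counts in its lowest sample. *Gins2* ranged from 15.3 to 25.5 CPM in whole spleen and from 8.45 to 13.6 CPM in the size-selected samples, without overlap. *Cdc6*, which loads the MCM ring, was at -0.74 (SE 0.32) and was not called (adjusted p 0.0521), and it was at -0.49 on restored counts (adjusted p 0.192). It was called lower by DESeq2 (adjusted p 0.0333), with RLE scaling (0.0474), with no filter (0.0467), and without number 408 (0.0354) or 435 (0.0155). Its whole spleen samples ranged 5.41-fold, from 2.75 to 14.9 CPM.

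*Pcna* (ENSMUSG00000027342, chromosome 2, 132249162 to 132253314), the sliding clamp of DNA polymerases, ranged from 189 to 260 CPM in whole spleen, with a median of 237. In the size-selected samples it ranged from 114 to 176 CPM, with a median of 149. The groups did not overlap, and *Pcna* fell by 0.65 on the log2 scale (SE 0.09, edgeR adjusted p 4.79e-06), a smaller standard error than that of any other of the 42 genes. *Rrm2*, the S phase subunit of ribonucleotide reductase, ranged from 27.6 to 96.8 CPM in whole spleen (median 55.8) and from 21 to 50.2 CPM in the size-selected samples (median 29.4). It was lower in 8 of 8 pairs although the groups overlapped, and it fell by 0.74 on the log2 scale (SE 0.23, edgeR adjusted p 0.00835). *Rrm1*, the subunit that is present through the cell cycle, was at -0.15 (SE 0.14, adjusted p 0.356), with every size-selected sample within the range of whole spleen. *Tyms*, thymidylate synthase, fell by 0.51 (SE 0.15).

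**Figure D2:**
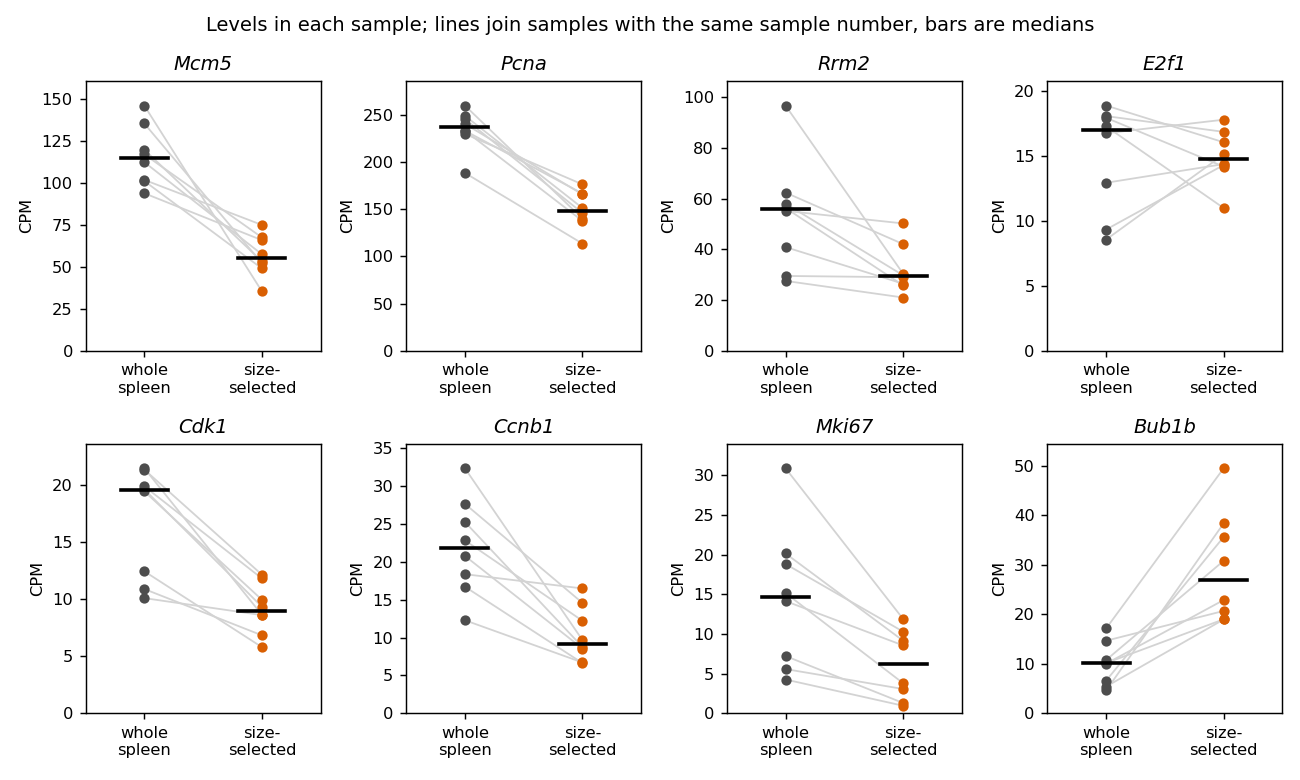
CPM of 8 of the genes in each sample, whole spleen on the left and size-selected on the right of each panel, with grey lines between same-numbered samples and bars at the medians. *Mcm5* and *Pcna* fall without overlap, *Rrm2*, *Cdk1*, *Ccnb1* and *Mki67* fall in 8 of 8 pairs with overlap, *E2f1* crosses, and *Bub1b* rises in 8 of 8 pairs.

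Of the 3 regulators of S phase entry 1 was called, and their median was -0.34. *Ccne1*, a cyclin E gene, ranged from 6.38 to 12.7 CPM in whole spleen (median 9.83) and from 4.66 to 8.38 CPM in the size-selected samples (median 6.20). It was lower in 7 of 8 pairs, at -0.58 (SE 0.17, edgeR adjusted p 0.0056), and it was not called on restored counts (-0.33, adjusted p 0.0949). *Ccne2*, the other cyclin E gene, ranged from 3.21 to 13.4 CPM in whole spleen (median 9.02) and from 5.26 to 8.65 CPM in the size-selected samples (median 6.55). All size-selected samples lay within the range of whole spleen, and the estimate was -0.34 (SE 0.23, adjusted p 0.187). *E2f1*, an activating E2F factor, ranged from 8.54 to 18.8 CPM in whole spleen (median 17.0) and from 11 to 17.8 CPM in the size-selected samples (median 14.7). It was lower in 4 pairs and higher in 4, with an estimate of 0.00 (SE 0.17, adjusted p 0.996).

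The mitosis class fell with 20 of 25 genes called lower and 1 higher, at a median log2 fold change of -0.90. On restored counts 19 were called lower and 1 higher (median -0.92), and the 19 genes without a constant had a median of -0.89. No test of the difference between the replication and mitosis medians was made. In the 8 same-numbered pairs the mean log2 CPM difference was -0.64 ± 0.39 over the replication genes and -0.78 ± 0.35 over the mitosis genes (SD, n = 8 pairs). The mitosis mean was further below 0 than the replication mean in 7 of 8 pairs, by 0.14 ± 0.15 on average (SD), and the exception was number 427.

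All 8 genes of the mitotic cyclins, kinases and their activator fell, with a median of -0.88, and 7 fell on restored counts. *Cdk1* (ENSMUSG00000019942, chromosome 10, 69335146 to 69352938) ranged from 10.1 to 21.5 CPM in whole spleen, with a median of 19.6, and from 5.82 to 12.2 CPM in the size-selected samples, with a median of 9.01. Its 3 lowest whole spleen samples, numbers 407, 408 and 460, lay apart from the other 5, which were between 19.5 and 21.5 CPM. Every pair showed a lower size-selected value, and the estimate was -0.89 (SE 0.20, edgeR adjusted p 0.000599). *Ccnb1*, the main cyclin B, ranged from 12.3 to 32.3 CPM in whole spleen (median 21.8) and from 6.63 to 16.5 CPM in the size-selected samples (median 9.21). All 8 pairs were lower, at -1.07 (SE 0.22, edgeR adjusted p 0.00026). *Plk1*, the polo-like kinase of mitotic entry, ranged from 2.59 to 15.9 CPM in whole spleen (median 8.31) and from 3.0 to 6.95 CPM in the size-selected samples (median 3.70). The lowest sample of all was whole spleen number 408, so no size-selected sample lay below the range of whole spleen, and the log2 fold change was -1.0 (SE 0.30, edgeR adjusted p 0.00689).

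*Aurkb*, the kinase of the chromosomal passenger complex, ranged from 8.54 to 21.4 CPM in whole spleen (median 14.1) and from 5.33 to 12.3 CPM in the size-selected samples (median 9.32). In 7 of 8 pairs it was lower, at -0.63 (SE 0.20, edgeR adjusted p 0.00874). *Foxm1*, the transcription factor that activates G2 and M phase genes, ranged from 3.08 to 7.98 CPM in whole spleen (median 6.92) and from 2.30 to 6.98 CPM in the size-selected samples (median 3.41). It fell by 0.75 on the log2 scale (SE 0.25, edgeR adjusted p 0.0117), but on restored counts it was at -0.50 and not called (adjusted p 0.0815), nor was it called without number 445 (0.0536). *Aurka*, the spindle pole kinase, fell by 1.08 without overlap of the groups. *Ccna2*, the cyclin of S phase and G2, fell by 0.71, and *Ccnb2* by 0.86. *Ccna2* was not called without number 427, 436 or 445 (adjusted p 0.0612 to 0.0659) or with library totals (0.0617).

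All 6 kinetochore and centromere genes fell, with a median of -1.18, but limma-voom called 4 of the 6 and left out *Cenpe* (adjusted p 0.0847) and *Cenpf* (adjusted p 0.179). *Birc5*, survivin, a subunit of the chromosomal passenger complex, fell by 1.59 (SE 0.24), a 3.01-fold lower level, and by 1.35 on restored counts. *Cenpa*, the centromeric histone H3 variant, had log2 fold change -1.20 (SE 0.18), with 156 to 276 CPM in whole spleen and 41.7 to 138 CPM in the size-selected samples. Its groups did not overlap. *Cenpe*, a kinetochore motor, and *Cenpf* fell by 1.20 and 1.15, and *Ndc80* and *Nuf2*, 2 subunits that bind microtubules, by 0.85 and 0.96. *Ndc80* varied 1.17-fold over the whole spleen samples, the narrowest range of the 42 genes, and *Cenpf* varied 36.1-fold, the widest, with 2 counts in whole spleen number 460. *Cenpf* was called at an adjusted p of 0.0464, and was not called when any of 6 of the 8 numbers was left out (adjusted p 0.0593 to 0.112 without 407, 408, 435, 436, 445 or 447). *Cenpe* was not called without 427 or 436 (adjusted p 0.0646 to 0.0818).

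*Mki67* and *Top2a*, the chromosome surface protein Ki-67 and the topoisomerase that untangles chromosomes, are common markers of dividing cells, and both fell. *Mki67* (ENSMUSG00000031004, chromosome 7, 135689784 to 135716361) ranged from 4.27 to 30.9 CPM in whole spleen, with a median of 14.7, and from 0.969 to 11.9 CPM in the size-selected samples, with a median of 6.19. Numbers 407, 408 and 460 held the 3 lowest whole spleen values and the 3 lowest size-selected values, and *Mki67* was lower in 8 of 8 pairs. Its log2 fold change was -1.25 (SE 0.49, edgeR adjusted p 0.0302), with an SE of 0.21 under the replicate block, and it was not called without number 436 (adjusted p 0.0707). *Top2a* ranged from 28.5 to 66.3 CPM in whole spleen (median 39.4) and from 12.8 to 32.5 CPM in the size-selected samples (median 22.5). It was lower in 8 of 8 pairs, at -0.90 (SE 0.18, edgeR adjusted p 0.000278).

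The 5 genes of spindle motors and spindle assembly had a median of -0.41, and 2 fell. These were *Kif11*, the motor that separates spindle poles, at -1.09 (SE 0.24) and -0.84 on restored counts, and *Tpx2*, the activator of Aurora A on the spindle, at -0.73 (SE 0.27), which was not called with library totals (adjusted p 0.0559). *Kif20a* and *Kif23*, motors of the central spindle and cytokinesis, were at -0.41 (SE 0.28) and -0.33 (SE 0.17) and were not called. On restored counts *Kif20a* was at -0.15 (adjusted p 0.642), and with the replicate block as well *Kif23* was called lower (-0.38, adjusted p 0.0474). It was also called without number 435 (-0.44, adjusted p 0.0326). *Kif2c*, a depolymerase of microtubules, was at -0.17 (SE 0.28, adjusted p 0.611). For *Kif20a* and *Kif2c* every size-selected sample was above the lowest whole spleen sample.

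The 4 genes of the spindle checkpoint and the anaphase-promoting complex went in both directions. *Cdc20*, the activator of that complex, fell by 1.17 (SE 0.17), and *Ube2c*, its ubiquitin-conjugating enzyme, by 1.56 (SE 0.33), or by 0.92 and 1.32 on restored counts. *Bub1*, a checkpoint kinase, was at -0.62 (SE 0.38, adjusted p 0.159), and was called at -0.76 without number 460 (adjusted p 0.0290). *Bub1b* (ENSMUSG00000040084, chromosome 2, 118598211 to 118641591), which encodes the checkpoint protein BUBR1, ranged from 4.63 to 17.1 CPM in whole spleen, with a median of 10.1, and from 19.0 to 49.5 CPM in the size-selected samples, with a median of 26.8. Every size-selected sample was above every whole spleen sample, and the log2 fold change was 1.57 (SE 0.27, edgeR adjusted p 5.41e-05). Ranked by log2 fold change it stood at place 2768 of 14510 genes. Leaving out any 1 number gave values from 1.40 to 1.73, and *Bub1b* was called higher in males alone (1.57) and in females alone (1.49). Number 427 held the highest *Bub1b* value of both groups.

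Most of the other genes of both processes, from lists that leave out the 42, were called lower. Of 45 other replication genes 32 fell and 1 rose, with a median of -0.65. Of 53 other mitosis genes tested 32 fell and 1 rose, with a median of -0.82. The replicate block gave 29 lower and 1 higher for the replication list, and 32 lower and 3 higher for the mitosis list. *Cdt1*, a licensing factor, *Clspn*, a fork checkpoint adaptor, and *Rpa3*, a subunit of the single-strand binding protein, were the largest replication falls at -1.42, -1.14 and -1.09, or -1.18, -1.20 and -0.84 on restored counts. *Timeless*, a fork protection factor, rose by 0.58 (SE 0.18), in 7 of 8 pairs. *Smc4*, a condensin subunit, *Cks2*, a partner of CDK1, and *Aspm*, a spindle pole protein, were the largest mitotic falls at -1.54, -1.36 and -1.32. *Espl1*, separase, was the mitotic rise at 0.95 (SE 0.35, adjusted p 0.0222), and under the replicate block 3 other mitosis genes were called higher, with *Anln* and *Ncapg2* added. On restored counts the median of the other replication genes was -0.49 with 31 called lower, and that of the other mitosis genes -0.83 with 32.

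Regulators that act before S phase went in both directions, as did all genes tested (30.4% lower and 37.5% higher). Of 9 G1 cyclins, kinases and growth regulators 5 fell and 2 rose. *Mycn* rose by 4.15 (SE 0.38), from a median of 0.408 to 12.3 CPM, and has a log2 fold change of 4.22 in the authors' deposited table. *Ccnd1*, cyclin D1, rose by 2.27 (SE 0.28), from a median of 9.61 to 45.9 CPM without overlap. *Ccnd2*, cyclin D2, fell by 0.78 (SE 0.11), from 274 to 158 CPM, with -0.41 on restored counts, and *Ccnd3*, cyclin D3, was at -0.05 (adjusted p 0.718), and at 0.03 on restored counts. *Cdk6* and *Cdk4*, the partners of D cyclins, fell by 0.84 and 0.58, and *Cdk4* was at -0.20 on restored counts. *Cdc25a* fell by 0.41.

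Of the 12 genes of the E2F and pocket protein family 4 fell and 5 rose, shares near those of all genes tested, with a median of 0.23. With the replicate block 3 fell and 5 rose. *E2f2*, *E2f4* and *E2f8* fell by 1.28, 0.98 and 0.90, with *E2f4* at -0.73 on restored counts. *E2f6*, a repressor, *Tfdp2*, a dimer partner, and *Rbl2*, the p130 pocket protein, rose by 0.87, 0.78 and 0.56. Among the CDK inhibitors 2 of 6 tested fell and 3 rose. *Cdkn1a*, p21, ranged from 65.7 to 119 CPM in whole spleen and from 296 to 671 CPM in the size-selected samples, a log2 fold change of 2.09 (SE 0.18) without overlap. *Cdkn1c*, p57, rose by 2.59 (SE 0.24), and *Cdkn2b*, p15, by 1.66 (SE 0.34). *Cdkn1b*, p27, fell by 1.06 (SE 0.15), or by 0.81 on restored counts, *Cdkn2d*, p19, fell by 0.62 (SE 0.15), and *Cdkn2c*, p18, was at 0.20 (adjusted p 0.279). *Cdkn2a* did not pass the count filter.

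**Figure D3:**
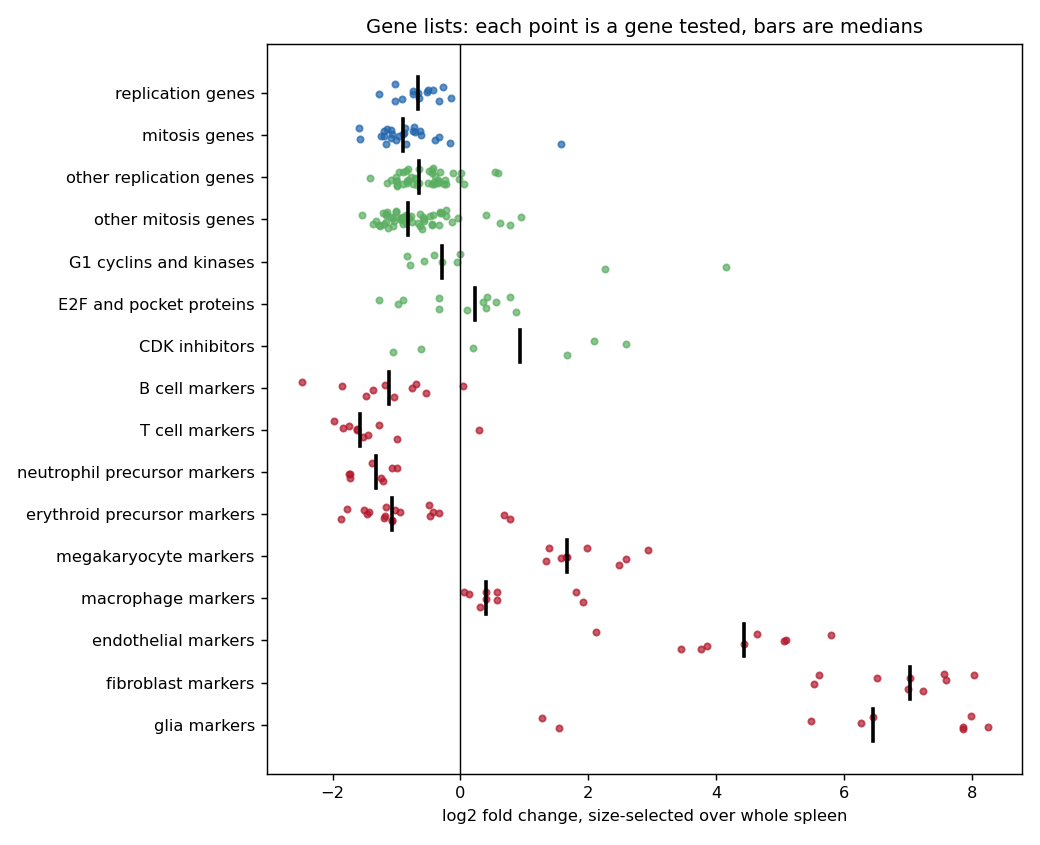
Log2 fold change of each gene tested, by list, with bars at the medians: replication and mitosis genes at the top, other genes of the same pathways below them, and markers of cell types at the bottom. Replication and mitosis medians (-0.66 and -0.90) lie on the same side as B cell, T cell, neutrophil precursor and erythroid precursor markers (-1.11, -1.57, -1.32 and -1.07). Fibroblast and glia medians lie on the opposite side, at 7.04 and 6.45.

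Most markers of B cells, T cells and neutrophil precursors were lower in the same samples, and those of stroma, glia and megakaryocytes were higher. Of 10 B cell markers 8 fell, with a median log2 fold change of -1.11, and their summed level was 5956 to 7295 CPM in whole spleen and 1131 to 3919 CPM in the size-selected samples. Of 10 T cell markers 9 fell (median -1.57), from 752 to 1151 CPM down to 173 to 595 CPM. Of 8 neutrophil precursor markers 6 fell (median -1.32), at 196 to 999 CPM against 76.1 to 550 CPM. Of 18 erythroid precursor markers 2 fell without the replicate block (median -1.07), while with it 11 fell and 2 rose, and the summed levels overlapped at 89.4 to 607 CPM against 81.8 to 312 CPM. Germinal centre B cell markers fell for 3 and rose for 2 of 7. Their summed level was 60.3 to 127 CPM in whole spleen and 87.7 to 125 CPM in the size-selected samples (medians 86.7 and 102). Plasma cell markers also fell for 3 and rose for 2 of 7, at 1697 to 3400 CPM against 1031 to 1955 CPM. Over all genes tested 30.4% were called lower and 37.5% higher. Of 9 macrophage markers 4 rose and none fell (median 0.40), at 2305 to 4113 CPM in whole spleen and 3886 to 9037 CPM in the size-selected samples. With the replicate block 6 macrophage markers rose, all 8 neutrophil precursor markers and 9 B cell markers fell, 9 T cell markers fell and 1 rose, and 4 plasma cell markers fell and 2 rose. All 9 fibroblast, 9 endothelial and 9 megakaryocyte markers rose, with medians of 7.04, 4.44 and 1.67. Glia markers rose for 9 of 9 tested of 12 (median 6.45), at 2.44 to 11.3 CPM in whole spleen and 81.3 to 673 CPM in the size-selected samples. The part of these cell types in the falls of the 42 genes was not tested.

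The size of the fall differed between numbers, and it was deepest and shallowest in the same numbers for both classes. Number 427 had the deepest falls, with a mean of -1.37 over the replication genes and -1.32 over the mitosis genes, and number 435 the shallowest, at -0.15 and -0.32. The same 2 numbers were at the ends for B cell markers (-2.31 and -0.61) and for T cell markers (-2.90 and -0.77). Erythroid precursor markers were at -1.50 in number 427 and -0.61 in number 435, and were shallowest in number 460, at -0.13.

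**Figure D4:**
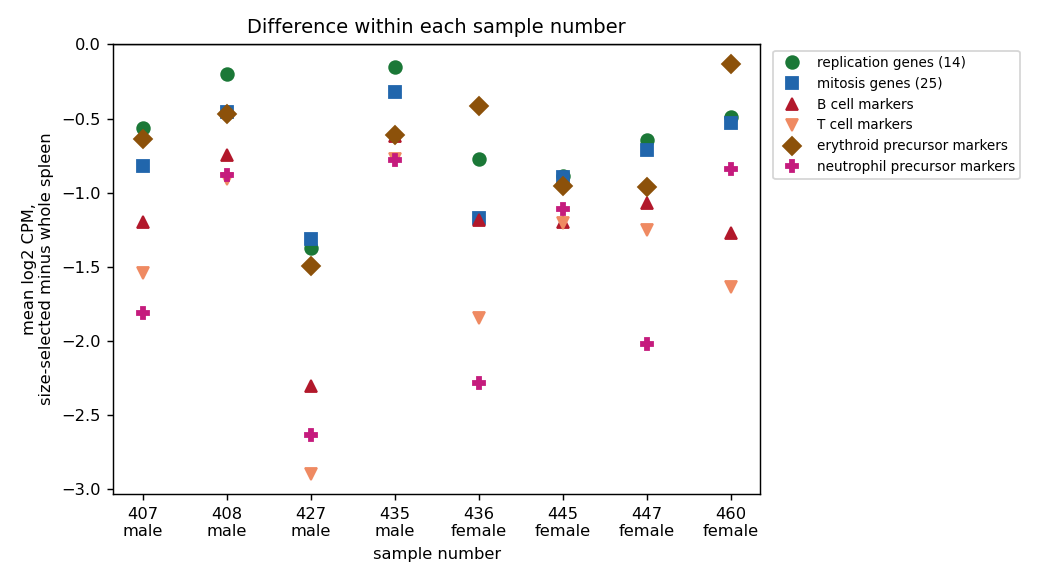
Mean log2 CPM difference, size-selected minus whole spleen, in each of the 8 numbers, for replication genes, mitosis genes and 4 lists of blood cell markers. All points are below 0, and number 427 is the lowest and number 435 the highest for replication, mitosis, B cell and T cell genes.

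The range over the samples of a group was wider at the median for mitosis genes than for replication genes, with no test of the difference made. In whole spleen the median ratio of the highest to the lowest sample was 3.05-fold over the 25 mitosis genes and 1.83-fold over the 14 replication genes, and in the size-selected samples 2.61-fold and 1.84-fold. Fewer than 60 counts in the lowest sample were found for 11 of the mitosis and 2 of the replication genes, and without these the ratios were 2.42-fold and 1.80-fold in whole spleen and 2.58-fold and 1.83-fold in the size-selected samples. Of the 42 genes, whole spleen number 427 was highest for 22 and number 447 for 8, and number 408 was lowest for 18, number 460 for 11 and number 407 for 7. The summed erythroid precursor level was 417 to 607 CPM in numbers 427, 435, 445 and 447, and 89.4 to 123 CPM in numbers 407, 408, 436 and 460. In number 436, 20 of the 25 mitosis genes were above the whole spleen mean. Its summed marker levels were 89.4 CPM for erythroid precursors, 127 CPM for germinal centre B cells and 1151 CPM for T cells. The part of these cell types in the ranges was not tested. Among the size-selected samples number 435 was highest for 19 genes and number 447 for 13, while numbers 427 and 460 were lowest for 13 each. Size-selected number 435 also had the highest B cell (3919 CPM), T cell (595 CPM) and neutrophil precursor (550 CPM) levels of its group.

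**Figure D5:**
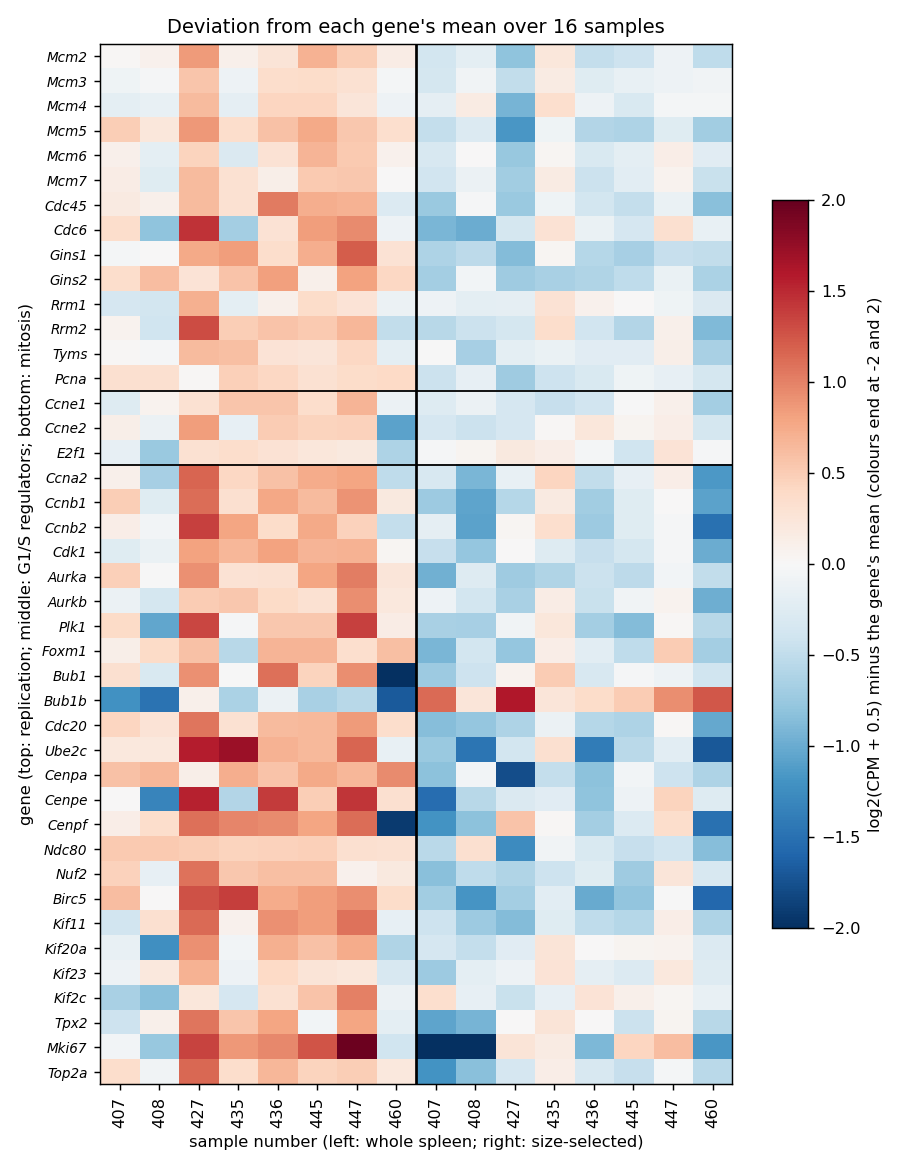
Each gene's log2(CPM + 0.5) minus its mean over the 16 samples, with whole spleen on the left and size-selected samples on the right. Red is above the mean and blue below: whole spleen is mostly red and the size-selected samples mostly blue, with *Bub1b* reversed, and the columns of numbers 408 and 460 are paler or blue in whole spleen.

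Between females and males none of the 42 genes differed beyond the threshold. In whole spleen 0.194% of 13383 genes were called by edgeR and 0 of the 42. At an unadjusted p under 0.05 were 16.1% of genes and 1 of the 42, *Kif2c*, at 0.97 higher in females (SE 0.39, edgeR adjusted p 0.258). DESeq2 called 518 genes there (3.87%) and 0 of the 42, with 2 at an unadjusted p under 0.05 (17.1% of genes). The limma-voom fit called 27 genes (0.202%) and 0 of the 42, with 3 at an unadjusted p under 0.05 (16% of genes). In the size-selected samples 0.0397% of 15127 genes and 0 of the 42 were called, with 0 of the 42 at an unadjusted p under 0.05 (4.18% of genes). DESeq2 (22 genes, 0.145%) and limma-voom (7 genes, 0.0463%) also called 0 of the 42 there, with 0 at an unadjusted p under 0.05 (5.1% and 4.52% of genes). In the interaction of sex and fraction edgeR called 0 of 15760 genes, 744 had an unadjusted p under 0.05 (4.72%), and 0 of the 42 did. DESeq2 called 3 genes (0.019%) and limma-voom 0 in that interaction, with 0 of the 42 called or at an unadjusted p under 0.05 (5.5% and 3.65% of genes). With the replicate block 3 genes were called (0.019%) and 935 were at an unadjusted p under 0.05 (5.93%), again with 0 of the 42. In males alone 16 of the 42 genes fell (19.1% of genes tested) with a median of -0.78, and in females alone 28 fell (27.7%) with a median of -0.82.

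Reads shared with other genes limit some single values. Whether reads were counted by strand is not stated, and *Mcm7*, *Cdc45*, *Gins2*, *Ccne2*, *Ccna2*, *Cdc20* and *Kif20a* each overlap exons of an expressed gene on the opposite strand, so their levels are uncertain, while no gene overlapped the exons of *Bub1b*. *Tyms*, *Pcna*, *Ccnb1* and *Ccnb2* have named pseudogenes.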

How the data were processed

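RNA was sequenced from 8 size-selected and 8 whole spleen samples. Per the submitters' processing notes, Trim Galore, STAR, RSEM and DESeq were used with build mm10; their roles and versions are not given in the sources used here. Values per sample are the authors' estimated counts for each gene, as deposited. Per the file headers, the authors' deposited table of comparisons gives a log2 fold change and adjusted p-values, and only the value of 1 gene was taken from it. In the size-selected columns 3898 genes carry constants, which no label or header mentions; restored counts divide them out.

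These counts were rounded and tested over all genes with edgeR 4.0.16 (R 4.3.3), by its quasi-likelihood F test with group as the only term, after filterByExpr (minimum count 10) and TMM scaling. A gene was called below 0.05 after Benjamini-Hochberg adjustment. Standard errors come from dividing a fold change by the square root of its F. The sex comparisons used 8 samples of 1 fraction and the interaction all 16. Nothing in the labels says that samples came from separate animals, so p-values measure the spread between these samples. The shared numbers were taken as pairs, which the labels do not state. Deviations from group means correlated at 0.12 to 0.38 (mean 0.21, across genes) for all 8 same-numbered pairs. For the 56 other pairs the mean was -0.03 and the range -0.33 to 0.23, with 12 above 0.1, so the ranges overlapped. The scripts were tested on simulated data.

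The 42 genes and all lists were chosen with earlier results of these data known. All 42 genes are named; 14 and any gene opposite to most of its class are given in full; of each pathway list the 3 largest rises and falls among called genes are named, with all CDK inhibitors and D cyclins. Means over pairs use log2 CPM with a prior count of 2. Coordinates are from GENCODE M21 (GRCm38), which held 54809 of the 54838 identifiers, and promoters from RefSeq. Alternatives were DESeq2 1.42.0, limma-voom (limma 3.58.1), RLE scaling, library totals, no filter, a minimum count of 50, sex as a covariate, the replicate block, restored counts, a single sex, a fold change minimum and leaving out each number.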

Additional observations from a re-analysis of the deposited data

Results flagged for a closer look

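Each of the 42 genes was screened in each group for a sample whose gap to the nearest other, on log2 CPM, took more of the group's range than is usual for 8 values. Of 84 groups of 8 values, 8 had such a sample, and chance alone gives about 1 in 20, or 4.2. In whole spleen number 460 was low for *Bub1* (-1.14 log2 CPM, 5 counts) and for *Cenpf* (-1.94 log2 CPM, 2 counts), number 435 was low for *Foxm1* (1.68 log2 CPM), and number 427 was low for *Pcna* (7.56 log2 CPM) and *Cenpa* (7.28 log2 CPM). *Cenpa* was at 156 CPM in that sample against 215 to 276 CPM in the other 7, and *Pcna* at 189 CPM against 230 to 260 CPM. In the size-selected samples number 427 was low for *Cenpa* (5.39 log2 CPM), number 445 low for *E2f1* (3.47 log2 CPM) and number 435 high for *Gins1* (1.44 log2 CPM).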

How the results depend on the processing

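With the replicate block the numbers pair the samples, and 32 of the 42 genes were called lower and 1 higher, as without it, so no call of these genes changed. Of the 42 genes, 18 kept their direction and their side of the threshold in each alternative that tested them, apart from the fold change minimum, *Bub1b*, *Mcm5*, *Pcna*, *Aurka*, *Ccnb1* and *Top2a* among them. In males only 16 genes were called lower (19.1% of genes tested) and in females only 28 (27.7%). A fold change minimum of 1 on the log2 scale left 14 of the 42 genes lower and 1 higher. It left 4844 of the 14510 genes tested called in either direction, a share near that of the 42. Leaving out any 1 number gave 27 to 34 of the 42 genes called lower and 1 higher. Over all genes tested these fits called 9249 to 9823 in either direction. The medians then ranged from -0.71 to -0.50 (replication) and from -0.98 to -0.80 (mitosis). Without number 436, 4 calls were lost, and without number 445, 5, *Mcm6* and *Foxm1* among them; *Ccna2*, *Cenpe* and *Mcm3* each lost their call without 2 or 3 numbers, number 427 being common to all 3. Library totals gave 3442 genes lower and 6041 higher over all genes tested; restored counts lost *Ccne1* and *Foxm1*, limma-voom *Cenpe* and *Cenpf*, and sex as a covariate *Cenpf* (adjusted p 0.051), while DESeq2, RLE scaling and no filter added *Cdc6*. *E2f1*, near 0, changed sign with library totals (0.12), limma-voom (0.045), males only (0.020), the replicate block (0.039) and the minimum count of 50 (0.025), and ranged from -0.092 to 0.11 when a number was left out; *Kif2c* did so in males only (0.24) and ranged from -0.33 to 0.039 when a number was left out. The cause was not tested. For sex in whole spleen the 26 calls became 518 with DESeq2, 273 without a filter and 7 to 261 when a sample was left out, and for sex in the size-selected samples 22 with DESeq2. The interaction gave 3 with DESeq2, 3 with the replicate block and 0 to 1 when a number was left out. None of these calls was among the 42 genes. In their lowest sample 14 of the 42 genes had fewer than 60 counts, which limits the precision of their folds: *Cenpf*, *Bub1*, *Cenpe*, *Mki67*, *Gins1*, *Kif2c*, *Kif20a*, *Nuf2*, *Cdc6*, *Plk1*, *Foxm1*, *Tpx2*, *Ccne2* and *Kif11*. The median ranges without these genes were an alternative chosen after seeing the data.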
